A study of Mus musculus with 9 samples.

Results

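The genes described here encode the proteins of the mitochondrial ribosome. They were taken by name from the deposited gene tables: rows whose symbol begins with Mrpl or Mrps and a digit, without names ending in -ps, kept where at least 3 libraries held 10 or more counts. Of the 23393 gene rows used, 76 carried such a name and 76 were kept, 47 named for the large subunit and 29 for the small subunit. The RNA came from regulatory T cells (Tregs) of mouse spleen. The wild-type Tregs were divided by ST2, the interleukin-33 receptor encoded by Il1rl1. The 9 RNA-seq libraries form 3 groups of 3: Tregs of the genotype labelled ST2KO, and wild-type Tregs labelled as high or low for ST2, called ST2-high and ST2-low below. The labels do not divide the ST2KO Tregs by ST2. In comparisons with them, genotype and the make-up of the sorted cells cannot be told apart. The series as a whole concerns ST2-bearing Tregs in kidney injury. The labels give neither the ages of the mice, nor the ST2KO allele, nor whether replicates were separate animals, so p-values measure the spread between these libraries, which may be technical.

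The mitochondrial ribosome makes only the few proteins that mitochondrial DNA encodes, all of them core subunits of the respiratory chain complexes and the ATP synthase. Its own proteins are encoded in the nucleus, made in the cytosol and imported, and they assemble on ribosomal RNA that mitochondria transcribe themselves. Compared with a bacterial ribosome it holds less RNA and many added proteins found only in mitochondria. Tregs are known to depend on mitochondrial respiration for suppression. The roles given below are those assigned in mammalian, mainly human and pig, ribosome structures and through bacterial homologs. By these roles, 30 members are bacterial-type and 18 are mitochondria-specific proteins of the large subunit. In the small subunit, 17 are bacterial-type and 9 are mitochondria-specific proteins. Mrps18a and Mrps36 were counted in none of these classes. The names do not always match the place: Mrps30 and Mrps18a sit in the large subunit. Mrps36 is now placed in the alpha-ketoglutarate dehydrogenase complex and not in the ribosome, and it was kept because the rule goes by name. No mitochondrially encoded gene was among the rows used.

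The promoters of the 2 members with the largest rises in ST2KO against ST2-low Tregs, Mrpl34 and Mrps25, and of the 2 with the largest falls, Mrps22 and Mrpl50, are printed first, because their sequences differ in the short motifs they hold. Each run is 300 bases, 250 before and 50 after the RefSeq start, on the gene's strand in GRCm38.p6. The Mrpl34 promoter is at chr8:71464676-71464975 on the + strand, that of Mrps25 at chr6:92183974-92184273 on the - strand, that of Mrps22 at chr9:98601630-98601929 on the - strand and that of Mrpl50 at chr4:49521034-49521333 on the - strand. Capitals mark matches to the ETS motif CCGGAAG, the core recognised by the mitochondrial gene regulator GABP, and to ACTACA followed after any 2 bases by TCCC, letters of the motif bound by ZNF143 (Zfp143 in mouse), each searched on both strands. The ZNF143-type letters were added to the search after these promoters had been read.
Mrpl34: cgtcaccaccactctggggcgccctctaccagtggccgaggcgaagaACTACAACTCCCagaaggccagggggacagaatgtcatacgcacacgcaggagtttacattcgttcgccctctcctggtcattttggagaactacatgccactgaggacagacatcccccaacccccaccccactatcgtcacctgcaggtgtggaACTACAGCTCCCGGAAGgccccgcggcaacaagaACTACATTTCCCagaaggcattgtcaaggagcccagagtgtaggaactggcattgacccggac
Mrps25: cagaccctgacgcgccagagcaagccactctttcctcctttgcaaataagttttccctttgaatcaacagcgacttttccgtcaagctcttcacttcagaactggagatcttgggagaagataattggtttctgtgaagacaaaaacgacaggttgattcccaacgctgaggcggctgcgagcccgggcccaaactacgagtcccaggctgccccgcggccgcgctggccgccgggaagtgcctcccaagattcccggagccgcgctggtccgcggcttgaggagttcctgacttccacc
Mrps22: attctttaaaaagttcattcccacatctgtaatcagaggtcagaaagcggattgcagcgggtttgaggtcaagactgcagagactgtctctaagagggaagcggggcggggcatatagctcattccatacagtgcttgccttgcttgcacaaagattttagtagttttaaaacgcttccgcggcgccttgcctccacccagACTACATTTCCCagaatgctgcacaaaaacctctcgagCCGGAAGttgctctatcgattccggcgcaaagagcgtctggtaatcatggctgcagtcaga
Mrpl50: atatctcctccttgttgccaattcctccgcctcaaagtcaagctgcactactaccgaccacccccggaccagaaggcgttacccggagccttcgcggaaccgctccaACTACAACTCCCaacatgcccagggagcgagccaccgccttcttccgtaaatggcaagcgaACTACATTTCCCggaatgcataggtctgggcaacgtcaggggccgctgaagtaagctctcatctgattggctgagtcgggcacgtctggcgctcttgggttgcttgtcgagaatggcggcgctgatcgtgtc
The Mrpl34 promoter held 3 ZNF143-type matches, 1 of which shares its last letters with an ETS match. The Mrpl50 promoter held 2 ZNF143-type matches and the Mrps22 promoter held 1 of each kind. The Mrps25 window held no exact match to either motif, and near matches were not searched.

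The libraries held between 11659659 and 43406680 counts. Il1rl1 was at 67.6 ± 14.0 CPM (counts scaled per library size, with TMM factors; SD, n = 3) in ST2KO Tregs, 494.7 ± 66.0 CPM in ST2-high Tregs and 2.62 ± 0.837 CPM in ST2-low Tregs, so the labels high and low matched its RNA. Gene counts do not show which part of Il1rl1 the ST2KO allele removes, and the ST2KO label could not be checked from them. Foxp3, which defines Tregs, was at 430.2 ± 17.6, 567.7 ± 47.8 and 461.6 ± 16.3 CPM in ST2KO, ST2-high and ST2-low Tregs. By the edgeR test described below, 2 of 7 Treg markers were higher and 2 lower in ST2KO against ST2-low Tregs. Il2ra (log2 fold change 0.30) and Ikzf2 (0.22) were the higher ones. The called share of the Treg markers was 57.1%, against 62.3% of all genes tested. Ctla4, an inhibitory receptor, was at 786.3 ± 40.9 CPM in ST2KO Tregs and 1996 ± 46.9 CPM in ST2-low Tregs, and Lrrc32, which holds latent TGF-beta on the surface, at 376.7 ± 20.0 and 1238 ± 25.8 CPM in the same groups. The summed Treg markers ranged from 4067 to 4166 CPM in ST2KO libraries, from 6269 to 6721 CPM in ST2-high libraries and from 5830 to 6009 CPM in ST2-low libraries. The part of these differences in the results below was not tested. ST2-high replicate 3 stood apart from the other ST2-high libraries (chi-square per gene of 16.5 and 19.9, against at most 8.22 between any other replicates), so the counts that rest on it are also given without it. Of the markers of other cells, 6 of 7 myeloid and dendritic genes were lower in ST2KO than in ST2-low Tregs. So were 4 of 6 B cell, 3 of 3 plasma cell, 2 of 2 neutrophil and 1 of 4 NK cell genes. Neither of the CD8 T cell genes nor the 1 erythroid gene tested passed. Of all genes tested 29.3% were lower in the same comparison. The summed myeloid and dendritic markers ranged from 32.6 to 49.0 CPM in ST2KO libraries, from 115.4 to 120.8 CPM in ST2-high libraries and from 131.4 to 174.7 CPM in ST2-low libraries. The summed B cell markers ranged from 63.5 to 79.5, from 88.5 to 113.6 and from 77.6 to 115.2 CPM in the same 3 groups. No marker of these lists was at 0 in all libraries except the globins Hba-a1 and Hbb-b1, and the part of such cells in the results below was not tested.

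The members differed widely in level. The lowest count of any member in any library was 8, so all 76 entered the test. Mean levels ran from 0.853 CPM for Mrps36 to 43.3 CPM for Mrpl9, with a median of 10.6 CPM. The next lowest after Mrps36 were Mrps33 with 3.56 CPM and Mrpl47 with 3.63 CPM. Per kilobase of annotated exons, Mrpl24 had the highest level with 17.2 CPM per kb, followed by Mrps23 with 16.8 and Mrpl9 with 16.0 CPM per kb, and Mrps10 had the lowest with 0.649 CPM per kb. The summed level of all members was 979.6, 971.5 and 1003 CPM in ST2KO libraries, 952.6, 989.3 and 873.4 CPM in ST2-high libraries and 957.3, 916.8 and 979.0 CPM in ST2-low libraries. These sums overlap between groups. The TMM factors were themselves higher in ST2KO libraries, from 1.05 to 1.064, than in ST2-high libraries, from 0.9372 to 1.002, and in ST2-low libraries, from 0.9488 to 0.9925. As a plain share of counts with Rn45s (the ribosomal RNA precursor) set aside, the members took from 0.122% to 0.1268% of the ST2KO libraries, from 0.09824% to 0.1128% of the ST2-high libraries and from 0.1032% to 0.1117% of the ST2-low libraries. The plain shares of ST2KO libraries thus lay above all others, and the scaled sums did not. Fewer cells of a type and less RNA per cell cannot be told apart in such bulk libraries.

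In ST2KO against ST2-low Tregs the mitochondrial ribosome genes split, some rising and others falling by mostly modest folds. At a Benjamini-Hochberg adjusted p below 0.05 in edgeR's quasi-likelihood test over 12219 genes, 22 members were higher and 14 lower in ST2KO Tregs, and 40 did not pass. The 36 called members make 47.4% of the family, against 62.3% of all genes tested, 33.0% higher and 29.3% lower, and against 59.4% of the 1656 other genes at the middle levels of the members (7.25 to 15.3 CPM). The called share of the family was thus below the background in this comparison, where most genes differed. The median log2 fold change was 0.101 over the members and 0.051 over all genes, and the members' values ran from -0.76 to 1.23. A fold of 1.5 or more was passed by 4 members that rose and 2 that fell, where 16.0% of all genes rose and 13.6% fell by that much. The groups did not overlap for 40 members, against 67.2% of all genes.

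**Figure D1:**
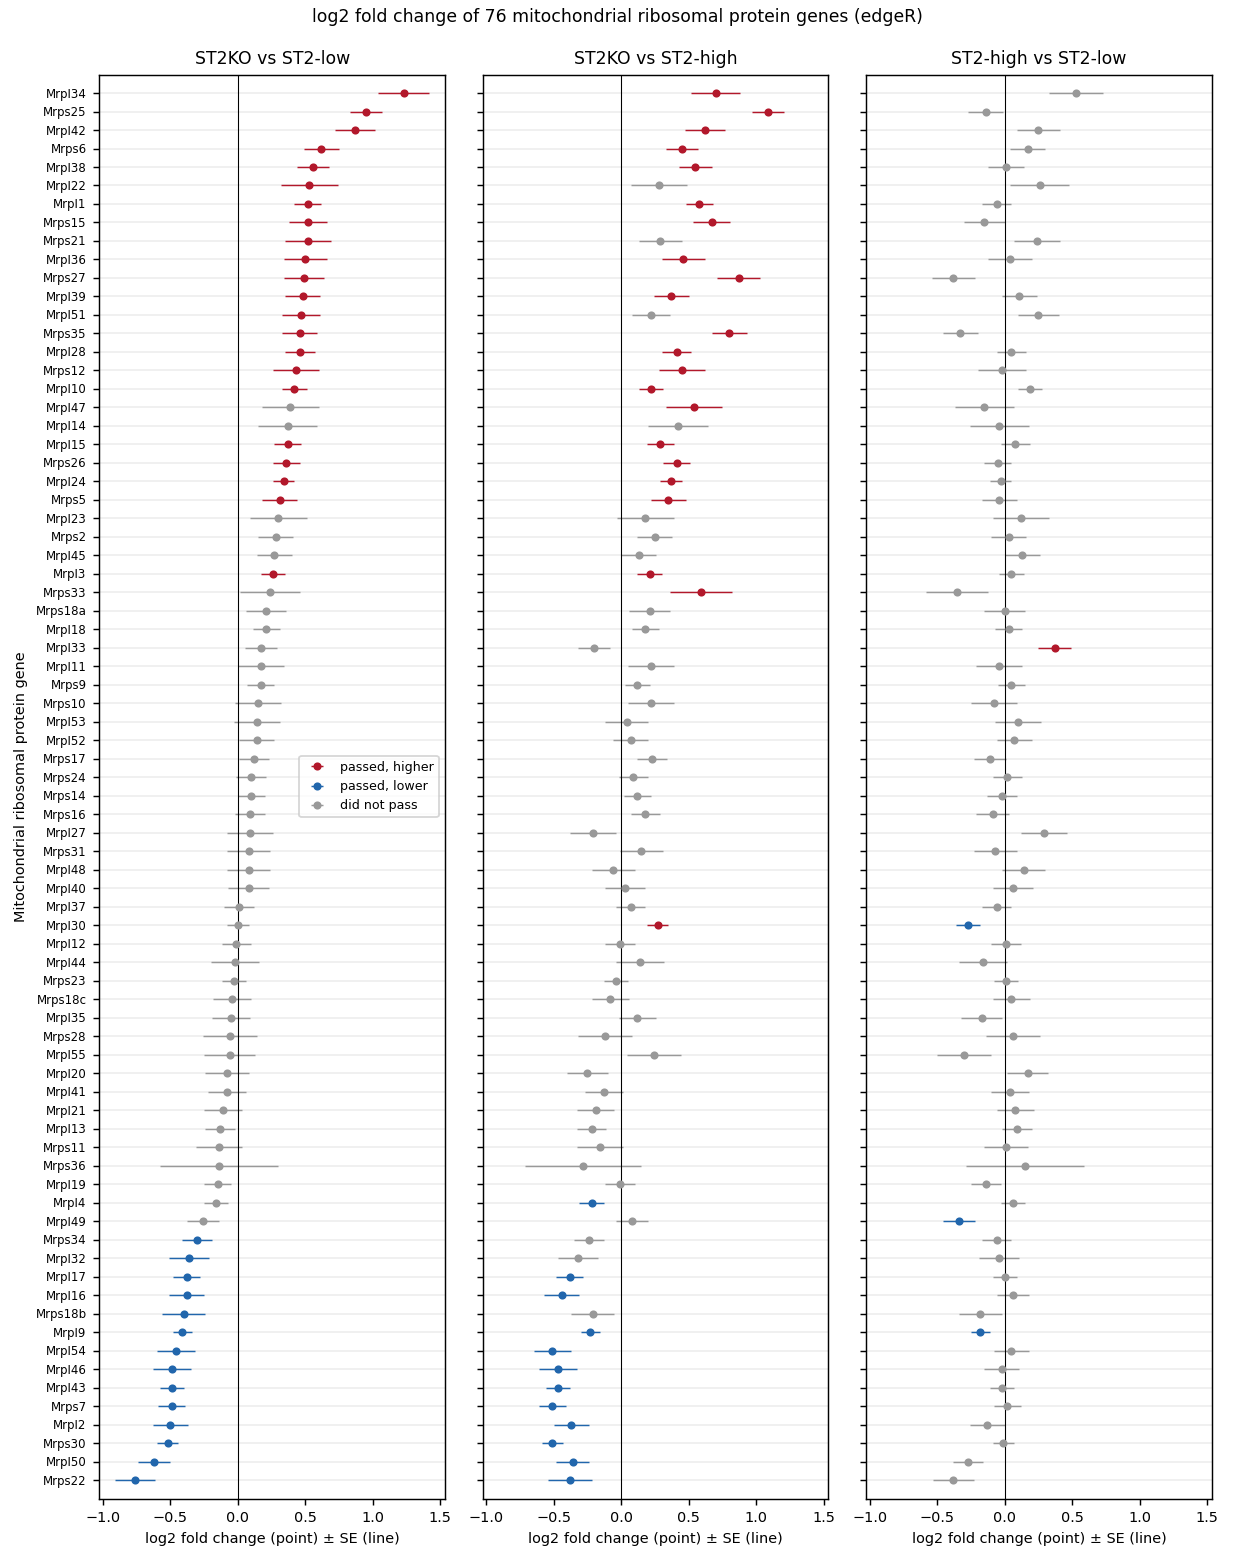
Log2 fold change (points) with standard error (lines) of each of the 76 members in the 3 comparisons, ordered by the ST2KO to ST2-low value, with members that passed the test in red (higher) or blue (lower) and the rest in grey. Red and blue points fill both ends of the ST2KO panels, with 22 higher in each, and 4 coloured points stand in the ST2-high to ST2-low panel.

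The largest rise was that of Mrpl34, a bacterial-type protein of the large subunit. Its level was 6.53, 7.07 and 5.65 CPM in ST2KO libraries, 4.22, 3.77 and 3.89 CPM in ST2-high libraries and 2.22, 2.76 and 3.27 CPM in ST2-low libraries. Every ST2KO library was above every wild-type library, and the ST2-high libraries lay between. The log2 fold change to ST2-low was 1.23 ± 0.19 (SE; adjusted p = 2.21e-06, edgeR), a fold of 2.34. Mrps25, a mitochondria-specific protein of the small subunit, was at 15.5, 18.5 and 16.7 CPM in ST2KO libraries, against 9.13, 8.55 and 8.34 CPM in ST2-low libraries. The groups were far apart, with a log2 fold change of 0.95 ± 0.12 (adjusted p = 4.62e-08). The exons of Mrps25 overlap those of Nr2c2 on the other strand over 69.8% of their length in GENCODE, and the counting of strand is not given, so its reads may include some of Nr2c2. Nr2c2 was at 259.2 ± 7.16 CPM in ST2KO Tregs and 273.5 ± 5.98 CPM in ST2-low Tregs and did not pass (adjusted p = 0.193).

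Mrpl42, a mitochondria-specific protein of the large subunit, was at 10.6, 9.70 and 10.6 CPM in ST2KO libraries and at 6.48, 4.30 and 6.03 CPM in ST2-low libraries, a log2 fold change of 0.87 ± 0.15 (adjusted p = 1.25e-05). Mrps6, the homolog of bacterial S6 on the small subunit's platform, was at 11.8, 13.6 and 14.7 CPM in ST2KO libraries and at 8.59, 8.61 and 8.64 CPM in ST2-low libraries, a log2 fold change of 0.62 ± 0.13 (adjusted p = 9.87e-05). Neither gene had overlapping groups. Mrps6 shares 10.4% of its exon bases with Slc5a3 on the same strand, and Slc5a3 was lower in ST2KO Tregs (log2 fold change -0.64). Smaller rises were those of Mrpl38 of the central protuberance (0.56), Mrpl1 of the stalk where spent tRNA leaves (0.52), Mrps15 (0.52), Mrps21 (0.52), Mrpl22 at the exit tunnel (0.53) and Mrpl36 (0.50), all with groups that did not overlap. The Mrpl22 call was lost without ST2KO replicate 1, without ST2-low replicate 2, in DESeq2's Wald test and after thinning the libraries to 1 depth.

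The largest fall was that of Mrps22, a mitochondria-specific protein of the small subunit whose loss of function causes mitochondrial disease in people. It was at 6.21, 5.67 and 4.75 CPM in ST2KO libraries, 6.84, 8.75 and 6.59 CPM in ST2-high libraries and 10.3, 8.72 and 9.75 CPM in ST2-low libraries. The ST2KO libraries were the lowest and the ST2-low libraries nearly all the highest, with 1 ST2-high library just above the lowest ST2-low library. The log2 fold change to ST2-low was -0.76 ± 0.15 (adjusted p = 8.55e-05), a fold of 1.69. Mrpl50, a mitochondria-specific protein of the large subunit, was at 12.4, 11.4 and 12.5 CPM in ST2KO libraries and at 17.7, 20.4 and 18.0 CPM in ST2-low libraries (log2 fold change -0.62 ± 0.12, adjusted p = 3.2e-05). Mrps30, among the 3 members with the highest mean CPM, was at 26.0, 23.5 and 27.4 CPM in ST2KO libraries and at 37.5, 36.5 and 35.8 CPM in ST2-low libraries (-0.52 ± 0.08, adjusted p = 2.39e-06). In both genes every ST2KO library was below every ST2-low library.

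Mrpl9, the homolog of bacterial L9 and the member with the highest mean CPM, was at 36.9, 36.5 and 38.0 CPM in ST2KO libraries and at 47.4, 47.8 and 52.8 CPM in ST2-low libraries, a log2 fold change of -0.41 ± 0.07 (adjusted p = 5.07e-06). Mrps7, which organises the head of the small subunit, was at 14.9, 17.1 and 19.3 CPM in ST2KO libraries and at 22.7, 24.7 and 23.2 CPM in ST2-low libraries (-0.49 ± 0.10, adjusted p = 7.42e-05). Mrpl43 was at 16.2, 17.1 and 18.7 CPM in ST2KO libraries and at 25.1, 23.8 and 23.3 CPM in ST2-low libraries (-0.49 ± 0.09, adjusted p = 4.65e-05). None of these 3 had overlapping groups. Mrpl2 (-0.50), Mrpl46 (-0.49), Mrpl54 (-0.46) and Mrpl17 (-0.38) also fell with groups apart, and the Mrpl54 call was lost without ST2KO replicate 1. Mrps7 shares 5.74% of its exon bases with Mif4gd and 6.13% with Gga3, both on the other strand. Mif4gd was lower in ST2KO than in ST2-low Tregs (log2 fold change -0.88, with a mean of 107 CPM over all libraries) and Gga3 was higher (0.47), and their part in the Mrps7 counts was not tested.

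**Figure D2:**
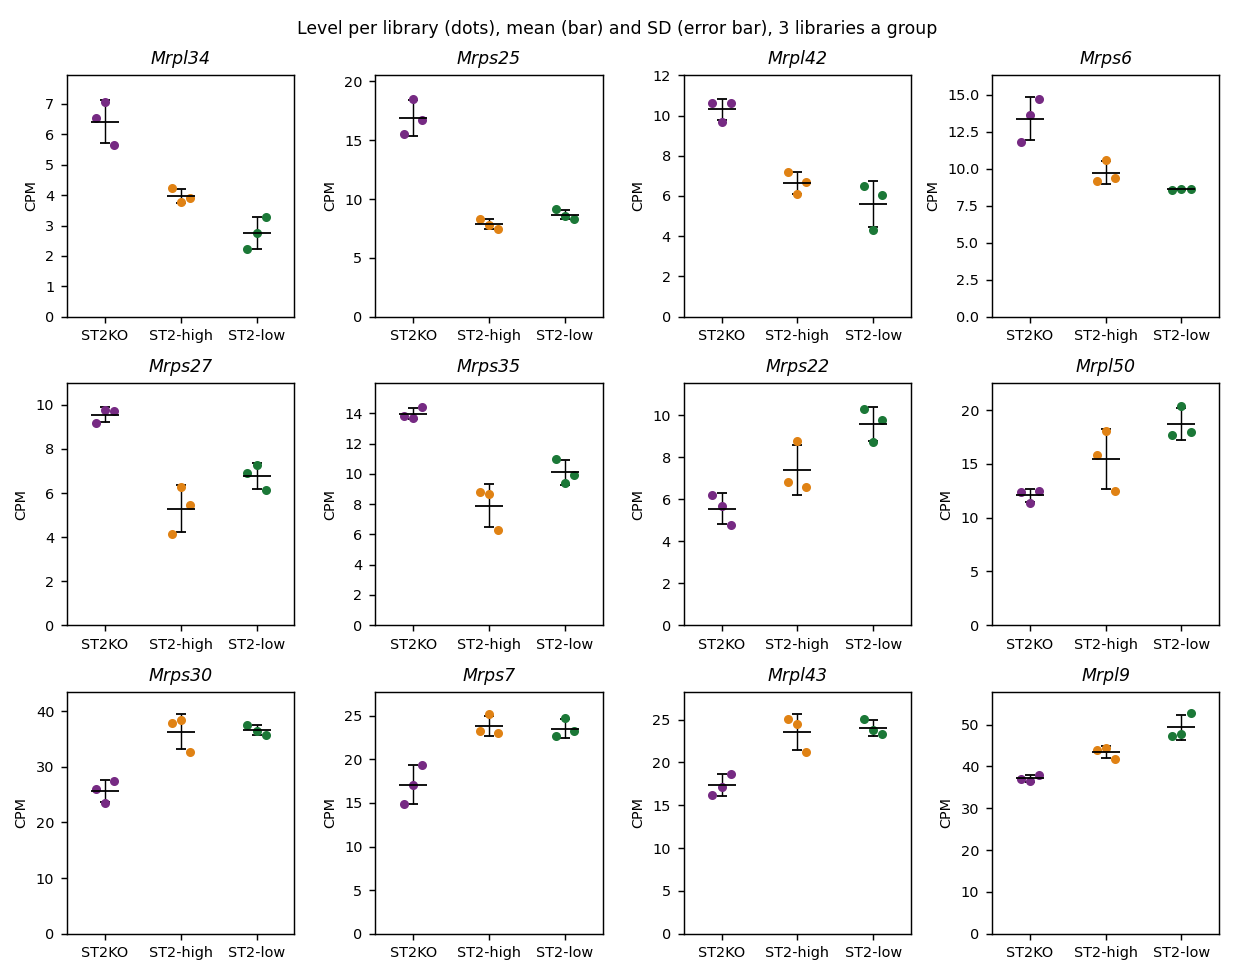
Level in CPM (TMM-scaled, linear axis from 0) of 12 members in each library (dots), with the group mean (bar) and SD (error bar, n = 3), for ST2KO, ST2-high and ST2-low Tregs from left to right. The 6 members that rose have their highest dots in ST2KO, with Mrpl34 at 5.65 to 7.07 CPM, and the 6 that fell have their lowest dots there.

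Rises and falls occurred in every part of the ribosome that holds many members. Of 30 bacterial-type large subunit genes, 9 rose and 5 fell in ST2KO against ST2-low Tregs. Of 18 mitochondria-specific large subunit genes, 4 rose and 5 fell, of 17 bacterial-type small subunit genes 5 rose and 2 fell, and of 9 mitochondria-specific small subunit genes 4 rose and 2 fell. The called shares of these 4 classes ran from 41.2% for the bacterial-type to 66.7% for the mitochondria-specific small subunit genes, against 62.3% of all genes tested. The last class had a median log2 fold change of 0.237 and a summed level of 111.1, 118.1 and 118.7 CPM in ST2KO libraries, 95.1, 99.7 and 86.5 CPM in ST2-high libraries and 105.5, 99.0 and 103.4 CPM in ST2-low libraries. All ST2KO sums of that class lay above the wild-type sums, but against ST2-low this rested on Mrps25. That gene took 15.5, 18.5 and 16.7 CPM of the ST2KO sums and 9.13, 8.55 and 8.34 CPM of the ST2-low sums. With Mrps25 taken out, the ST2KO and ST2-low sums overlap.

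Members that share a site in the ribosome were often called in opposite directions or not called. Of all genes tested 33.0% were higher and 29.3% lower in this comparison. Whether such a mix is particular to these sites was not tested. Around the peptidyl transferase centre, where peptide bonds form, Mrpl2 and Mrpl16 fell (-0.50 and -0.38) and Mrpl3 rose (0.26). The Mrpl16 call was lost without ST2KO replicate 1 and without ST2KO replicate 2. In the central protuberance, which meets the small subunit's head, Mrpl38 rose and Mrpl46 fell while the other 5 of 7 did not pass. Of 8 genes for proteins at the exit tunnel, Mrpl22, Mrpl24 (0.34) and Mrpl39 (0.48) rose and Mrpl17 fell. In the stalk that recruits the GTPase factors and the base of that stalk, Mrpl10 rose (0.42 ± 0.09, adjusted p = 0.000179). Mrpl11 (0.17 ± 0.17) and Mrpl12 (-0.01 ± 0.11) of the same site did not pass. In the decoding centre and mRNA channel, Mrps12 (0.43) and Mrps5 (0.31) rose and Mrps2 (0.28) and Mrps24 (0.10) did not pass. The Mrps12 call was lost without ST2KO replicate 1, without ST2-low replicate 1 or 2, in DESeq2's Wald test and after thinning. The Mrps5 call was lost without ST2KO replicate 2 or 3, without ST2-low replicate 2 and without ST2-high replicate 1 or 3. It was also lost with DESeq2 size factors, in DESeq2's Wald test and with only the 6 samples compared. Of 7 head proteins, Mrps35 rose (0.46), Mrps7 fell and 5 did not pass. The 3 homologs of bacterial S18, which occupy alternative or separate sites, had values of 0.21 for Mrps18a, -0.40 for Mrps18b and -0.04 for Mrps18c, and of them Mrps18b passed, with overlapping groups. That call was lost without any 1 of 4 libraries (ST2KO replicate 1 or 3, ST2-low replicate 1 or 3). It was also lost with upper-quartile factors in place of TMM and after thinning. Mrps36 was near the lower limit of detection, at 0.762 ± 0.103, 0.952 ± 0.493 and 0.845 ± 0.377 CPM in ST2KO, ST2-high and ST2-low Tregs.

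Set against ST2-high Tregs, the ST2KO libraries again showed rises and falls in the family. In this comparison 22 members were higher, 12 were lower and 42 did not pass. The called share was 44.7%, against 64.5% of all genes tested, 31.9% higher and 32.6% lower, and against 61.7% of other genes at the members' middle levels. The median log2 fold change was 0.130 over the members and 0.020 over all genes. A rise of 1.5-fold or more was passed by 7 members, against 15.9% of all genes. No member fell that far, the lowest value being -0.51, where 16.2% of all genes did. The groups did not overlap for 38 members, against 66.8% of all genes. Of the called members 64.7% were higher, and with upper-quartile factors in place of TMM the split was 27 higher and 8 lower, or 77.1% higher. Without ST2-high replicate 3 it was 17 higher and 18 lower, with a member median of 0.053, where 28.9% of all genes were higher and 33.6% lower. Without the same library ST2KO against ST2-low gave 21 higher and 15 lower. This comparison and the one above share the ST2KO libraries, so their likeness is not a result of its own.

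The largest rise against ST2-high was that of Mrps25, at 15.5, 18.5 and 16.7 CPM in ST2KO libraries and 8.27, 7.83 and 7.45 CPM in ST2-high libraries (log2 fold change 1.09 ± 0.12, adjusted p = 3.61e-09). Mrps27, a mitochondria-specific small subunit protein that binds RNA, was at 9.18, 9.76 and 9.74 CPM in ST2KO libraries, 4.15, 6.26 and 5.47 CPM in ST2-high libraries and 6.92, 7.28 and 6.13 CPM in ST2-low libraries. Its log2 fold change was 0.87 ± 0.16 against ST2-high (adjusted p = 1.9e-05) and 0.49 ± 0.15 against ST2-low (adjusted p = 0.00657), with no overlap of the ST2KO libraries with either group. Mrps35, also mitochondria-specific, was at 13.8, 13.7 and 14.4 CPM in ST2KO libraries, 8.79, 8.64 and 6.26 CPM in ST2-high libraries and 11.0, 9.38 and 9.90 CPM in ST2-low libraries. Its log2 fold change was 0.80 ± 0.13 against ST2-high (adjusted p = 3.94e-06). The ST2-high means were the lowest of the 3 groups for both genes.

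Mrps33 of the small subunit's head rose by a log2 fold change of 0.59 ± 0.23 against ST2-high (adjusted p = 0.0248, edgeR). That call was lost without ST2KO replicate 3 (its highest library), without ST2-high replicate 2 or 3 and in the limma-voom test. Mrpl47 rose by 0.54 ± 0.21 with overlapping groups (adjusted p = 0.0285, edgeR). Its call was lost without ST2KO replicate 1 and without ST2-high replicate 1 or 3. Of the 9 mitochondria-specific small subunit genes, 5 rose and 1 fell against ST2-high, with a median log2 fold change of 0.412. Their called share of 66.7% was close to the 64.5% of all genes. Without ST2-high replicate 3 the counts were 4 and 2 and the median 0.386, where 62.6% of all genes were called. Mrpl34 (0.70), Mrps15 (0.67), Mrpl42 (0.62), Mrpl1 (0.58), Mrpl38 (0.55) and Mrps12 (0.45) rose as well, and Mrps12 was lost without ST2KO replicate 1 and without ST2-high replicate 2 or 3. The falls were led by Mrpl54 (-0.51 ± 0.14), Mrps30 (-0.51 ± 0.08) and Mrps7 (-0.51 ± 0.10), followed by Mrpl46 (-0.47), Mrpl43 (-0.47), Mrpl16 (-0.44), Mrpl17 (-0.38), Mrps22 (-0.38), Mrpl2 (-0.37) and Mrpl50 (-0.36). Mrps30 was at 37.9, 38.4 and 32.7 CPM in ST2-high libraries, above all ST2KO libraries. The Mrps22 call was lost without ST2KO replicate 2 or 3, without ST2-high replicate 2 and in the limma-voom test. The Mrpl50 call was lost without ST2-high replicate 2. The Mrpl2 and Mrps22 calls were also lost with upper-quartile factors.

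Between the wild-type groups few members differed. In ST2-high against ST2-low Tregs 1 member was higher, 3 were lower and 72 did not pass. The called share was 5.26%, against 26.1% of all genes tested, 15.3% higher and 10.8% lower, and against 22.5% of other genes at the members' middle levels. The median log2 fold change was 0.007 over the members and -0.002 over all genes, 10 members had an unadjusted p below 0.05, against 36.4% of all genes, and 9 had groups that did not overlap, against 38.1% of all genes. The members' values ran from -0.38 to 0.53, and none that passed reached 1.5-fold, a size at which 6.28% of all genes rose and 1.57% fell. Without ST2-high replicate 3, 2 members were higher and 2 lower, where 26.3% of all genes were called. Cell division genes differed strongly between the same libraries: 8 of 10 were higher in ST2-high Tregs, and Mki67, the proliferation marker, was at 307.1 ± 4.20 CPM in ST2-high and 125.9 ± 9.96 CPM in ST2-low Tregs. Of 80 cytosolic ribosomal protein genes, 42 were lower in ST2-high Tregs, and without ST2-high replicate 3, 23 of 81 were.

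The member that rose was Mrpl33, a small bacterial-type protein of the large subunit, at 18.1, 17.2 and 15.5 CPM in ST2-high libraries and 12.5, 15.9 and 11.2 CPM in ST2-low libraries. The groups overlapped, and the log2 fold change was 0.37 ± 0.12 (adjusted p = 0.0186). Mrpl30, also bacterial-type, was at 21.7, 23.3 and 22.2 CPM in ST2-high libraries and 27.2, 25.2 and 28.4 CPM in ST2-low libraries, without overlap (-0.27 ± 0.09, adjusted p = 0.0182). Mrpl49, mitochondria-specific, was at 10.3, 12.6 and 11.3 CPM in ST2-high libraries and 13.7, 13.8 and 15.5 CPM in ST2-low libraries, again without overlap (-0.34 ± 0.12, adjusted p = 0.0318). Mrpl49 shares 4.85% of its exon bases with Syvn1 on the other strand, which was lower by the same log2 fold change in ST2-high Tregs (-0.34, adjusted p = 0.000177 in edgeR) at a mean of 86.7 CPM over all libraries, and its part in the Mrpl49 counts was not tested. Mrpl9 was at 44.0, 44.5 and 41.9 CPM in ST2-high and 47.4, 47.8 and 52.8 CPM in ST2-low libraries (-0.18 ± 0.07, adjusted p = 0.0463). All 4 calls were lost without ST2-low replicate 3 and all 4 without ST2-high replicate 1. Those of Mrpl33, Mrpl30 and Mrpl9 were also lost without ST2-low replicate 1. The Mrpl33 and Mrpl9 calls were lost after thinning as well. The Mrpl9 call was lost without any 1 library of the series except ST2KO replicate 3. It was also lost without the filter, with only the 6 samples compared and with a block for replicate number. Mrpl34 had a larger log2 fold change than any of these 4 members, 0.53 ± 0.20, and did not pass (adjusted p = 0.0513, edgeR).

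Where members lie in the genome was compared with how they moved. Mrpl30 and Mrps9 lie within 10 Mb of Il1rl1 on chromosome 1, the locus that the ST2KO label names. Mrps9 was at 22.8, 24.3 and 21.5 CPM in ST2KO libraries and 22.3, 18.8 and 20.1 CPM in ST2-low libraries, and Mrpl30 at 27.3, 28.2 and 25.4 CPM in ST2KO libraries, so neither passed against ST2-low (0.17 ± 0.10 and 0.00 ± 0.08). Mrpl30 was higher in ST2KO than in ST2-high Tregs (0.27 ± 0.08, adjusted p = 0.00592), a call lost without ST2-high replicate 1. Mitd1, which starts 66 bp from Mrpl30 on the other strand, was at 14.1 ± 1.28 CPM in ST2KO Tregs and 6.82 ± 1.15 CPM in ST2-low Tregs (log2 fold change 1.04 ± 0.14, adjusted p = 1.35e-07).

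In GENCODE, 19 of the 76 members (25%) start within 1000 bp of a gene on the other strand, against 11.4% of the 11437 other tested genes with an annotation, and 17 of these partners were tested. Between ST2KO and ST2-low Tregs both genes passed in the same direction in 7 of 17 pairs (41.2%) and in opposite directions in 0, where 563 such pairs of other tested genes gave 20.6% and 11.9%. The member alone passed in 3 and the partner alone in 5. Mrps27 and its partner Ptcd2 were both higher (0.49 and 0.82), as were Mrps5 and Zfp661 (0.31 and 0.60). Mrpl2 and Klc4 were both lower (-0.50 and -0.46), as were Mrpl54 and Apba3 (-0.46 and -0.38), Mrps18b and Ppp1r10 (-0.40 and -0.66), Mrpl32 and Psma2 (-0.36 and -0.27) and Mrps34 and Eme2 (-0.30 and -0.25). The Mrpl32 call was lost without ST2KO replicate 2 or 3 and without ST2-low replicate 3. The Mrps34 call was lost without ST2KO replicate 1 or 2 and without ST2-low replicate 3. Both calls were also lost with upper-quartile factors and after thinning. The Mrpl32 call was further lost in the limma-voom test and with a block for replicate number. Mrps34, at a mean of 14.4 CPM, shares 63.4% of its exon bases with Mapk8ip3 on the other strand, at 149 CPM. It also shares 37.0% with Nme3 on the same strand. Mapk8ip3 did not pass (0.06) and Nme3 was higher (0.62), and their part in the Mrps34 counts was not tested. Against ST2-high both passed in the same direction in 5, in opposite directions in 0, the member alone in 2 and the partner alone in 8, where the other pairs gave 25.2% in the same direction and 13.0% in opposite ones. Without ST2-high replicate 3 both passed in the same direction in 6 pairs against ST2-low and in 6 against ST2-high. They passed in opposite directions in 0 and 1. The other pairs then gave 21.7% in the same and 13.1% in opposite directions against ST2-low. Against ST2-high they gave 23.6% and 13.1%. Mrps18c did not pass (-0.04) while its partner Helq, 29 bp away, was higher (0.93). Reads of genes that also overlap cannot be told apart without a stated strand. Of the 53 members with no exon shared with another gene of the files, 15 rose and 10 fell against ST2-low and 15 rose and 9 fell against ST2-high, and between the wild-type groups 1 rose and 1 fell.

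Other genes that the mitochondrial ribosome works with were taken from lists by function, and their counts are given beside those of the ribosomal proteins. Of 14 tested genes for mitochondrial translation factors, 11 were higher in ST2KO against ST2-low Tregs, a called share of 78.6% where 62.3% of all genes were called and 33.0% were higher, and all 14 had a positive log2 fold change. Gfm2, which helps to split ribosomes after a round of translation, was at 35.1 ± 1.17 CPM in ST2KO and 19.4 ± 0.625 CPM in ST2-low Tregs (log2 fold change 0.85 ± 0.08, adjusted p = 2.24e-10). Mtif2, the initiation factor, was at 33.8 ± 1.39 and 19.1 ± 0.806 CPM in the same groups (0.82 ± 0.09, adjusted p = 1.55e-09), and Tufm, the elongation factor that delivers tRNA, at 28.3 ± 1.68 and 19.2 ± 0.703 CPM (0.56 ± 0.09, adjusted p = 2.46e-06). The summed level of the factors was 293.1, 291.6 and 291.6 CPM in ST2KO libraries, 214.4, 217.5 and 211.6 CPM in ST2-high libraries and 204.9, 207.7 and 216.5 CPM in ST2-low libraries. The ST2KO libraries thus stood well above all wild-type libraries. Against ST2-high, 8 of 14 were higher, a called share of 57.1% where 64.5% of all genes were called and 31.9% were higher. Without ST2-high replicate 3, 10 were higher against ST2-low and 7 against ST2-high.

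Of 20 mitochondrial aminoacyl-tRNA synthetase and amidotransferase genes, which charge tRNA with amino acids, 13 were higher and 2 lower against ST2-low, a called share of 75% against 62.3% of all genes, with Rars2 at 16.4 ± 1.42 CPM in ST2KO and 7.75 ± 0.408 CPM in ST2-low Tregs (1.09 ± 0.13, adjusted p = 1.36e-08). Of 27 genes for ribosome assembly and rRNA modification, 12 were higher and 5 lower, a called share of 63.0%, close to the 62.3% of all genes. These calls include Ddx18 (0.18) and Noc4l (-0.22), which are known mainly as nucleolar factors of the cytosolic ribosome. Gtpbp5, a GTPase of large subunit assembly, rose to 17.1 ± 1.31 CPM in ST2KO Tregs, against 6.60 ± 0.598 CPM in ST2-low Tregs (1.37 ± 0.13, adjusted p = 7.54e-11). Nsun4, an rRNA methyltransferase that joins in the last steps of assembly, fell to 22.2 ± 0.711 CPM in ST2KO Tregs, against 43.8 ± 0.722 CPM in ST2-low Tregs (-0.99 ± 0.08, adjusted p = 1.2e-11). Ribosomal subunits with names other than Mrpl or Mrps gave 2 higher of 7, with the other 5 not passing: Ict1, a rescue factor built into the large subunit (0.75 ± 0.12, adjusted p = 3.1e-06), and Dap3 of the small subunit (0.18 ± 0.07, adjusted p = 0.0187).

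Genes for the steps before and after translation were counted in the same way. Of 28 genes for mitochondrial transcription, RNA processing and DNA upkeep, 8 were higher and 12 lower in ST2KO against ST2-low Tregs, a called share of 71.4%, with Tfb2m, a transcription initiation factor, at 16.9 ± 0.199 CPM in ST2KO and 36.2 ± 1.76 CPM in ST2-low Tregs (-1.09 ± 0.08, adjusted p = 8.06e-13). Of 35 import genes 7 were higher and 7 lower, and of 77 nuclear respiratory chain subunit genes 8 were higher and 15 lower. Of 80 cytosolic ribosomal protein genes 2 were higher and 13 lower, and without ST2-high replicate 3, 2 and 33 of 81. The called shares of the respiratory chain and cytosolic ribosomal lists were 29.9% and 18.8%. With the import list all 3 lay below the 62.3% of all genes, of which 33.0% were higher and 29.3% lower. Without ST2-high replicate 3 the cytosolic ribosomal list had a called share of 43.2%, against 63.2% of all genes. Its lower share was then 40.7%, above the 31.4% of all genes. Differences between these lists were not tested.

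**Figure D3:**
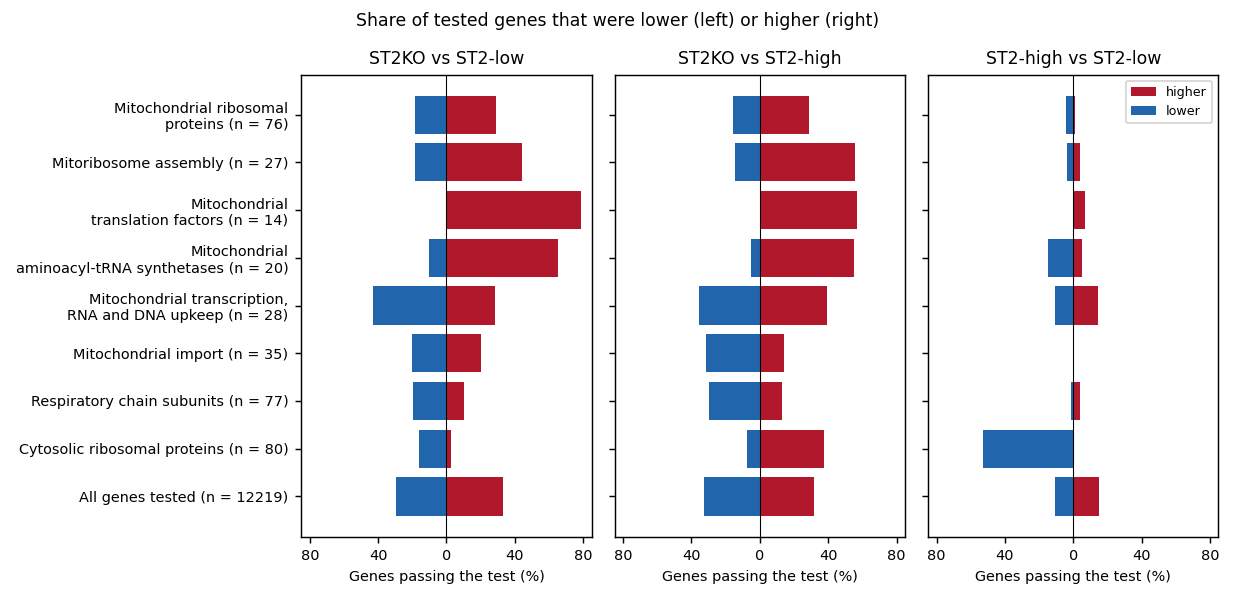
Share of the tested genes of each list (in percent, n in brackets) that were lower (blue, to the left of 0) or higher (red, to the right) at an adjusted p below 0.05 in edgeR, in the 3 comparisons, with all 12219 tested genes in the lowest row. The translation factors reach 78.6% higher with none lower in ST2KO against ST2-low Tregs, while the mitochondrial ribosomal proteins have bars on both sides.

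Of 11 tested genes for known regulators of mitochondrial genes, 6 were higher and 4 lower in ST2KO against ST2-low Tregs, a called share of 90.9% against 62.3% of all genes. GABP consists of the DNA-binding Gabpa and a partner that activates transcription, Gabpb1 or Gabpb2. Gabpb1 was at 60.5, 63.5 and 61.5 CPM in ST2KO libraries, with means of 203.7 ± 4.47 CPM in ST2-high and 154.9 ± 5.92 CPM in ST2-low Tregs (log2 fold change to ST2-low -1.33 ± 0.05, adjusted p = 2.33e-19). Gabpb2 was at 245.9, 257.5 and 239.9 CPM in ST2KO libraries, with means of 154.1 ± 9.42 CPM in ST2-high and 147.2 ± 5.13 CPM in ST2-low Tregs (0.75 ± 0.05, adjusted p = 2.57e-13). The partners thus differed in opposite directions, while Gabpa was at 86.6 ± 1.87, 79.0 ± 3.97 and 78.7 ± 4.66 CPM in ST2KO, ST2-high and ST2-low Tregs (0.14 ± 0.06 to ST2-low, adjusted p = 0.0473). Nrf1, which activates many nuclear genes for mitochondria, was higher in ST2KO than in ST2-low Tregs (0.55 ± 0.07, adjusted p = 1.99e-08), and Yy1, a factor that also binds such promoters, was lower (-0.41 ± 0.05, adjusted p = 4.67e-08). Ppargc1b, a coactivator of mitochondrial genes, was at 16.8 ± 1.55 CPM in ST2KO and 7.36 ± 0.243 CPM in ST2-low Tregs (1.19 ± 0.13, adjusted p = 3.33e-09), and Esrra, a nuclear receptor that it works with, at 23.2 ± 2.82 and 11.8 ± 0.702 CPM (0.96 ± 0.11, adjusted p = 1.02e-08). Tfe3 (-0.78) and the related coactivator Pprc1 (-0.43) were lower, and Sp1 (-0.02) did not pass. Myc, a driver of ribosome and mitochondrial growth genes, was higher in ST2KO than in ST2-low Tregs (0.77 ± 0.07, adjusted p = 2.01e-10) and in ST2-high than in ST2-low Tregs (0.70 ± 0.07, adjusted p = 9.24e-09).

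Promoters of 67 members were found in the RefSeq table, and their motifs were counted beside those of 27025 genes with a promoter and of the 9073 tested among them. The ETS motif was present in 24 of 67 members, or 35.8%, against 9.93% of all promoters and 20.7% of those tested. The NRF1 motif, GCGC and TGCGC with any base between, was present in 17.9%, against 5.19% and 11.7%, and the YY1 motif AAGATGGCG in 11.9%, against 1.64% and 3.68%. These 3 motifs were thus more frequent among members, as a description. The E-box CACGTG, at 7.46% against 8.09% and 11.9%, and the CCAAT box CCAAT, at 40.3% against 41.1% and 43.2%, were not, and the GC box GGGCGG, at 49.3%, lay between 38.2% and 68.6%. The ETS motif was present in 8 of 19 members with a promoter that rose in ST2KO against ST2-low Tregs, in 4 of 12 that fell and in 12 of 36 that did not pass, shares of 42.1%, 33.3% and 33.3%. It was thus present in each of these classes. The YY1 motif was present in 3 of 19, 0 of 12 and 5 of 36 of the same classes.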

How the data were processed

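Each of the 9 deposited files holds whole-number read counts per gene symbol, not normalised, judged from the values; no step the authors took before depositing the counts (aligner, genome build, strand setting, library kit, sort gates) is given in the sources used here. Of 23420 rows, 27 whose symbol had become a date were left out. The members, lists and named genes were chosen with earlier results of these data known. Counts were filtered with filterByExpr (minimum count 10, minimum total 15) and scaled with TMM factors, and all 9 libraries were fitted in edgeR 4.0.16 (R 4.3.3) with 1 coefficient per group and no covariate; the robust quasi-likelihood test was adjusted by Benjamini-Hochberg over 12219 genes. The procedure was tested on simulated data. Groups came from the genotype labels. Libraries of a group differed beyond sampling noise and each counted as 1 replicate. Members were named in detail by rule: in each comparison the 10 largest rises and falls that passed with groups apart, members with a special place in the ribosome, those near Il1rl1, and the 3 highest and lowest by mean CPM. Exon overlap and divergent starts came from GENCODE on GRCm38 and promoters from RefSeq on GRCm38.p6, matched by symbol; 93.2% of tested symbols matched. Alternatives were 19 per result, with DESeq2 1.42.0 and limma 3.58.1 among the tools.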

Additional observations from a re-analysis of the deposited data

How the results depend on the processing

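Each result was recomputed under 19 alternatives, or 18 for members that the filter of 5 CPM left out, and no called member changed sign, whereas some that did not pass did, such as Mrps36 (-0.20 to 0.47 in ST2-high against ST2-low). Of the calls between ST2KO and ST2-low Tregs 26 of 36 held under all of them, between ST2KO and ST2-high 19 of 34, and between ST2-high and ST2-low 0 of 4. In ST2-high against ST2-low the members lower were 5 with DESeq2 size factors and 6 with a filter of 5 CPM in 3 samples, against 3 as reported, and the members higher were 0 after thinning to the smallest library, against 1. Leaving out 1 library at a time, 0 to 2 members were higher and 0 to 5 lower in that comparison, 19 to 22 higher and 11 to 16 lower in ST2KO against ST2-low, and 17 to 22 higher and 9 to 18 lower in ST2KO against ST2-high. With upper-quartile factors ST2KO against ST2-low gave 26 higher and 11 lower, and the median of all genes moved to 0.121. Deviations from the group means correlated from -0.0626 to 0.0984 between same-numbered libraries of different groups, and from -0.114 to 0.0732 between the others. With 3 libraries a group these values cannot show whether the numbers pair the samples. With the replicate block ST2KO against ST2-low gave 22 higher and 13 lower, and ST2KO against ST2-high 22 and 12. For ST2-high against ST2-low the block gave 1 and 2. Depth limits the members of lowest count, such as Mrps36, whose SE was 0.44 on the log2 scale.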

Other observations

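ACTACA followed after any 2 bases by TCCC, letters of the kind ZNF143 binds, was present in 5 of 67 member promoters, or 7.46%, against 2.08% of all promoters and 4.97% of those of tested genes. The 5 members were Mrpl34, Mrpl42 and Mrpl24, which rose in ST2KO against ST2-low Tregs, and Mrps22 and Mrpl50, which fell; 0 of the 36 members with a promoter that did not pass held the letters. The motif was searched because it had been seen in the promoters of the members that changed most, so these counts are not independent of that choice. Over all tested genes with a promoter, 40.8% of the 451 with the letters were higher and 22.6% lower in ST2KO against ST2-low Tregs, where 32.9% of the 8622 without them were higher and 30.0% lower. Against ST2-high the shares were 41.9% higher and 23.3% lower with the letters, and 31.6% and 33.2% without, with the ST2KO libraries shared by both comparisons. In ST2-high against ST2-low Tregs 10.2% with the letters were higher and 10.2% lower, and 15.6% and 11.1% without. Without ST2-high replicate 3 the shares with the letters were 39.6% higher and 25.8% lower against ST2-low and 38.3% and 24.0% against ST2-high, and without the letters 31.8% and 32.2%, and 28.7% and 34.3%.

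Zfp143, which encodes the mouse protein and was looked at after its value was seen, was at 36.8, 30.7 and 30.0 CPM in ST2KO libraries, 14.7, 14.6 and 15.4 CPM in ST2-high libraries and 11.0, 13.3 and 13.2 CPM in ST2-low libraries. Its log2 fold change was 1.39 ± 0.10 against ST2-low (SE; adjusted p = 5.69e-13, edgeR) and 1.14 ± 0.10 against ST2-high (adjusted p = 2.68e-11). Whether the protein binds these promoters in Tregs was not tested.

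Across the 76 members, Spearman's rho between the log2 fold change of ST2KO against ST2-low and the mean CPM was -0.244, and it was -0.219 across all tested genes with an annotated length; with exon length the values were 0.0149 and -0.0125. These describe genes of the same libraries, and genes are not independent replicates.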
